A study of Homo sapiens with 6 samples.

Results

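Lysosomal proteases and hydrolases, with the membrane proteins, lipid carriers and transcription factors that serve them, were compared between parental and mutated cells of BCWM1, an established human line of Waldenström macroglobulinemia, a lymphoma whose cells range from B lymphocytes to plasma cells. The 33 genes were chosen by name, with earlier results of these data known. Every microarray probe set annotated with one of them as its only gene symbol was taken. That gave 88 probe sets for 32 genes, out of 19775 genes with such a probe set on the arrays. GLB1, the lysosomal beta-galactosidase, had none. The samples were 3 of parental BCWM1 cells and 3 of BCWM1 cells labelled as mutated. The series title names the mutation as C1013G in CXCR4, the receptor of the chemokine CXCL12. The labels name no treatment and no vector control, and the sources used here do not say how the mutated cells were made. Separate cultures are not stated for the samples of a group, and each p-value therefore reflects the spread of these 6 samples alone, part of which may be technical.

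Lysosomes are acidic compartments in which proteases, glycosidases, sulfatases and lipid hydrolases break down material from endocytosis and autophagy. Most of these enzymes are tagged with mannose-6-phosphate in the Golgi and carried to the lysosome by receptors, and a proton pump, the V-ATPase, keeps the lumen acidic. In B cells, cathepsins and legumain also process antigen and the invariant chain for presentation on MHC class II. TFEB and TFE3, transcription factors of the MiT/TFE family, bind E-box sequences at many lysosomal genes.

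Values were linear intensities, analysed as log2(intensity + 16). Each gene was represented by its brightest tested probe set, and the dimmest 40% of probe sets were not tested. A change is the mutated minus the parental mean log2 value, and a call needed a limma p, adjusted by Benjamini-Hochberg over 32768 probe sets, of less than 0.05. Array medians ran from 28.5 to 29.1 in parental and from 30.9 to 31.8 in mutated samples, so that array level and group went together. Pearson's r between arrays across tested probe sets was at least 0.994 within a group and at most 0.970 between groups. Of the B cell marker genes MS4A1, CD79A, CD79B, PAX5 and CD22, 5 of 5 were above the highest array median in a group mean. So were 1 of 5 T cell markers (CD2, with means of 31.4 in parental and 43.9 in mutated cells, but not CD3D, CD3E, CD3G or CD8A) and 2 of 8 macrophage markers (MSR1 and MARCO).

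Of the 33 genes, 30 could be tested. In mutated cells 13 of the 30 rose (43.3%, against 30.1% of all 13644 genes tested), 5 fell (16.7%, against 18.9%) and 12 did not pass, so that 18 (60%, against 49.0%) were called. The share that fell was near that of all genes. As the genes were chosen with earlier results of these data known, the share that rose describes this list alone. The median log2 change was 0.15 over the 30 genes and 0.038 over all genes. The 3 mutated values lay above the 3 parental values in 17 genes (56.7%, against 36.3% of all genes) and below them in 6 (20%, against 24.8%), so that 23 did not overlap (against 61.2%). Of the calls, 72.2% were higher. Quantile normalization gave 11 higher and 6 lower, a share of 64.7% (24.9% and 25.6% of all genes), and median centring of the arrays gave 9 and 7, a share of 56.2% (22.4% and 26.1%). These scalings moved the median of all tested genes from 0.038 to −0.027 and −0.041. Without parental replicate 3, 9 rose and 6 fell. Most changes were below 2-fold, and LAMP5 was the only 1 of the 30 to pass at 2-fold or more, where 3.77% of all genes rose and 1.55% fell by that much.

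**Figure D1:**
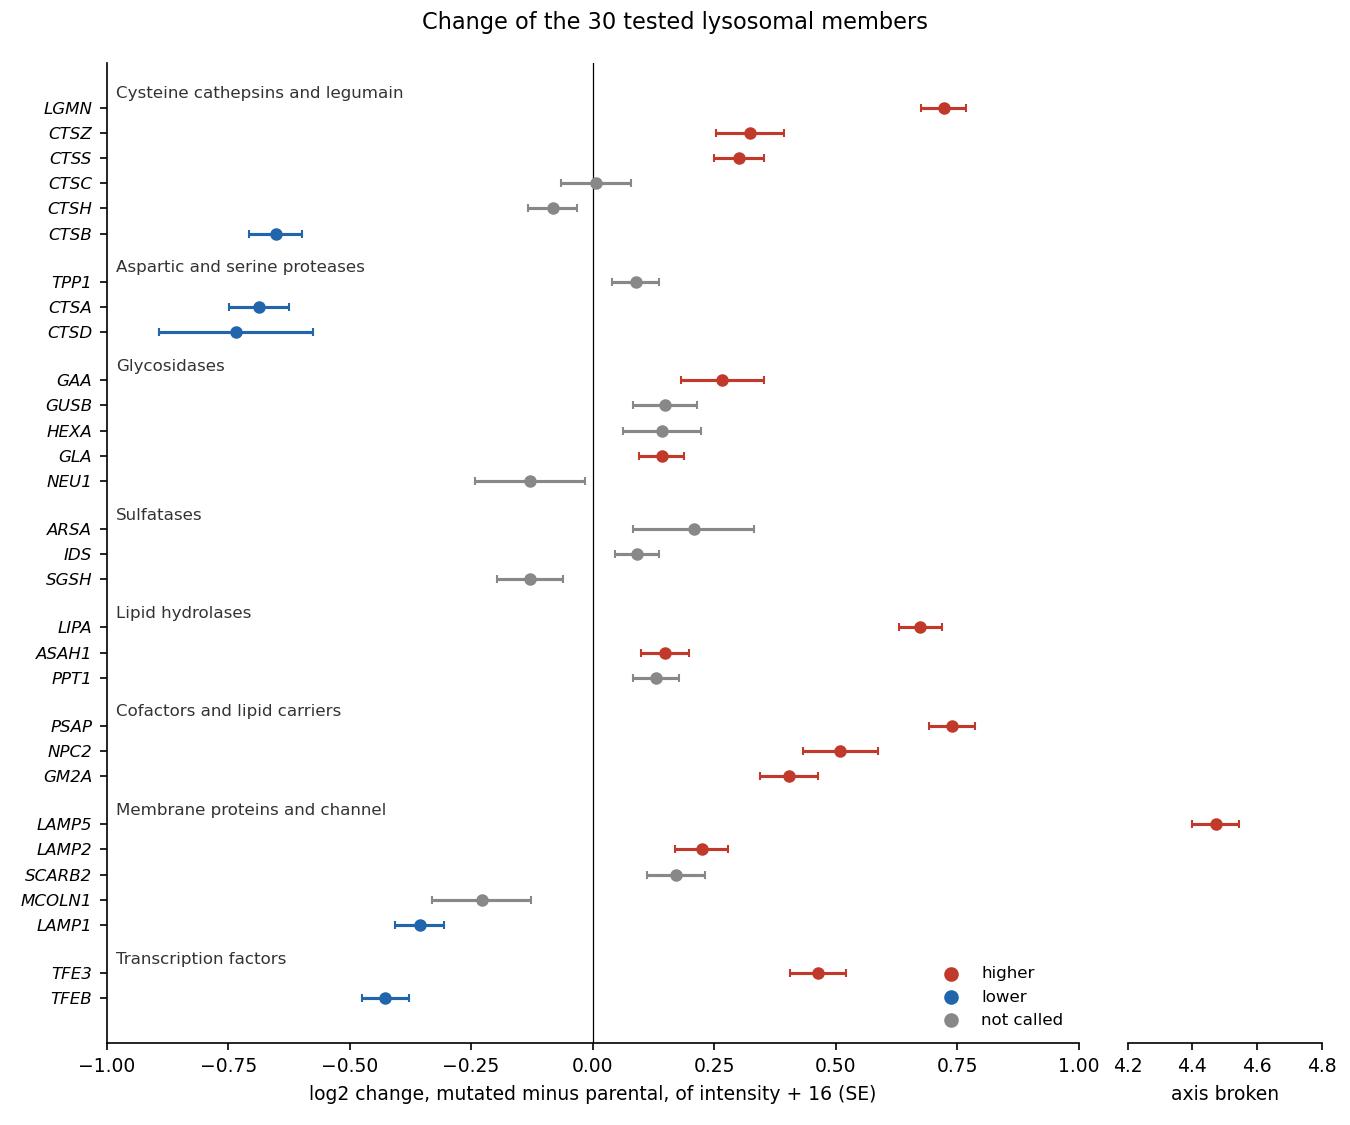
Log2 change (mutated minus parental, of intensity + 16, bars are SE) of the 30 tested genes, grouped by role and coloured by call at an adjusted p under 0.05, with the horizontal axis broken before LAMP5. The cofactors and lipid carriers PSAP, NPC2 and GM2A all lie to the right of 0, CTSB, CTSA and CTSD lie at −0.65 or below, and TFEB and TFE3 lie on opposite sides.

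The transcription factors TFEB and TFE3 changed in opposite directions. TFEB had intensities of 1569, 1665 and 1644 in parental cells and 1187, 1229 and 1201 in mutated cells, so that every mutated sample was below every parental one. It fell by 0.43 on the log2 scale (SE 0.049; limma, adjusted p = 6.2e-04), and its other probe set also fell by 0.43. TFE3 had intensities of 1175, 1292 and 1202 in parental cells and 1759, 1682 and 1636 in mutated cells, again without overlap. It rose by 0.46 (SE 0.058; limma, adjusted p = 9.3e-04). Of its other tested probe sets, 1 rose by 0.29 and a dim one gave −0.030. Both calls held under each of the 16 alternative settings.

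E-boxes of the letters CACGTG were searched in promoter windows from RefSeq (assembly GRCh38.p14), each running from 250 bases before to 50 after an annotated transcript start. The word reads the same on both strands, and 8.77% of the 27305 genes with a window hold it. Windows were found for 24 of the 33 genes, and 6 of them (25.0%) hold it: CTSA, CTSD, LAMP1, GAA, MCOLN1 and NEU1. The longer palindrome TCACGTGA, which contains CACGTG, is in the windows of CTSA, LAMP1, GAA and MCOLN1 and in 1.18% of all genes. Extended by a G before and a C after, this palindrome is in the windows of GAA and MCOLN1 alone. That is 8.33% of the 24 genes, against 0.421% of all genes. None of the 4 genes that fell and had a window holds this extended form. Among genes with a window, CACGTG was in those of 3 of 4 that fell, 1 of 8 that rose and 2 of 9 that did not pass. The genes without a window, which were not searched, include CTSB, which fell, and LGMN, PSAP, CTSS, LAMP2 and ASAH1, which rose. HEXA, ARSA and SGSH, which did not pass, had none either. All these counts describe the windows and were not tested. CTSA, CTSD and LAMP1 fell, GAA rose, and MCOLN1 and NEU1 did not pass. The 200 bases before the start of each are shown because they hold the word that TFEB and TFE3 can bind, with each CACGTG in capitals, 5′ to 3′ on the strand of the gene.
CTSA, chr20:45891135-45891334, plus strand: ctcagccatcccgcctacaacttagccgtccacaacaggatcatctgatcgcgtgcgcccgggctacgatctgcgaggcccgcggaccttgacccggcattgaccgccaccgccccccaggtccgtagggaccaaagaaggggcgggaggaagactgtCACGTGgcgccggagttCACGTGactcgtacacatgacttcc
CTSD, chr11:1763928-1764127, minus strand: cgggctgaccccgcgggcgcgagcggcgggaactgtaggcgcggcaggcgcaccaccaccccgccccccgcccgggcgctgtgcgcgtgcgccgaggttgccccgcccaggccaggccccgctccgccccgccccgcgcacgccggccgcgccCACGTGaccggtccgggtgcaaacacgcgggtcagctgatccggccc
LAMP1, chr13:113297039-113297238, plus strand: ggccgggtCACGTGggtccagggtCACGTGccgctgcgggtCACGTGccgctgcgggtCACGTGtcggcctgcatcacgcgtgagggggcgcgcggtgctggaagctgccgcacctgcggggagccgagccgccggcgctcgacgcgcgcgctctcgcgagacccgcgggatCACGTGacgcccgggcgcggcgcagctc
GAA, chr17:80101381-80101580, plus strand: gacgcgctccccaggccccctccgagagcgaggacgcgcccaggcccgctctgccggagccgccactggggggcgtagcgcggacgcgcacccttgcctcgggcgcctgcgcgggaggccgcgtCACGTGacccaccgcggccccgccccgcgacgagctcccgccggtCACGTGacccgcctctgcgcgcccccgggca
MCOLN1, chr19:7522424-7522623, plus strand: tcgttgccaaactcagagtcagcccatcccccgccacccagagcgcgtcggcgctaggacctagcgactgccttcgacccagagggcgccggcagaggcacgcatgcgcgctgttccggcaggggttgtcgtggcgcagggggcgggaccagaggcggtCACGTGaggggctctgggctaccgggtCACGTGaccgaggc
NEU1, chr6:31862822-31863021, minus strand: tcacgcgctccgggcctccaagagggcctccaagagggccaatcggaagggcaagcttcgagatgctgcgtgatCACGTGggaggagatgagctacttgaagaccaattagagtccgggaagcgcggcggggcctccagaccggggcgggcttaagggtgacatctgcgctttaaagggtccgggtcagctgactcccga
In LAMP1 the word occurs 5 times in the stretch shown, with first bases 192, 176, 159, 142 and 28 bases before the start, and a sixth copy crosses the start. GAA has copies at 76 and 31 bases before the start, MCOLN1 at 41 and 14, CTSA at 42 and 25, CTSD at 47 and NEU1 at 126. A match does not show that a factor binds there. TFEB and TFE3 have no CACGTG in their own windows, and neither does LAMP5.

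Of 6 cysteine proteases tested, 3 rose (50%, against 30.1% of all genes), 1 fell (16.7%, against 18.9%) and 2 did not pass. Legumain (LGMN), which cuts after asparagine, had intensities of 1936, 1990 and 1953 in parental and 3315, 3254 and 3165 in mutated cells, with all mutated samples higher. It rose by 0.72 (SE 0.046; limma, adjusted p = 5.1e-05), a ratio of mean intensities of 1.66. CTSB, cathepsin B, had intensities of 740, 776 and 711 in parental and 456, 482 and 461 in mutated cells, with all mutated samples lower. It fell by 0.65 (SE 0.054; limma, adjusted p = 1.6e-04), and 3 of its other 4 probe sets fell as well, by 0.67, 0.30 and 0.24. CTSS, the protease that trims the invariant chain in B cells, rose from 1987 ± 42.3 to 2452 ± 98.4 (SD, n = 3), and CTSZ, a carboxypeptidase, from 384 ± 29.9 to 484 ± 18. The third CTSS probe set gave −0.091 and did not pass. CTSH, an aminopeptidase, gave −0.082 and did not pass, although it did with median centring (−0.16, adjusted p = 0.047). CTSL was not tested, with a mean intensity of 7.58 in parental and 5.83 in mutated cells, below the array medians.

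CTSC, also called dipeptidyl peptidase I, activates serine proteases of leukocyte granules, and its probe sets disagreed. It is singled out here after its values were seen. The brightest probe set, which represented the gene, read 3121, 3116 and 2847 in parental and 3233, 3095 and 2809 in mutated cells, groups that overlap (log2 change 0.0074, limma, adjusted p = 0.94). The next brightest read 2273, 2127 and 2027 in parental and 3761, 3613 and 3478 in mutated cells, with all mutated samples higher and a rise of 0.75. The third read 1307, 1388 and 1374 in parental and 2781, 2777 and 2631 in mutated cells. It rose by 1.0007 (SE 0.052; limma, adjusted p = 2.0e-05), and the dimmest rose by 0.84. The rise on these 3 probe sets held under every alternative that could be applied to a single probe set. As the mean of its probe sets CTSC rose by 0.65 (limma, adjusted p = 7.8e-05). Which transcripts the probe sets detect was not analysed here.

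The aspartic and serine proteases CTSD and CTSA fell. CTSA, a serine carboxypeptidase that also shields NEU1 and GLB1 in a complex, had intensities of 488, 451 and 509 in parental and 282, 293 and 305 in mutated cells, with no overlap. It fell by 0.69 (SE 0.062; limma, adjusted p = 2.3e-04). CTSD, cathepsin D, had intensities of 170, 158 and 146 in parental and 119, 75.0 and 76.4 in mutated cells, all mutated samples being lower and mutated replicate 1 standing above the other 2. It fell by 0.73 (SE 0.16; limma, adjusted p = 0.0095). Both genes have 1 probe set. TPP1, a tripeptidyl peptidase, gave 0.089 and did not pass (adjusted p = 0.18), although its second brightest probe set rose by 0.28.

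**Figure D2:**
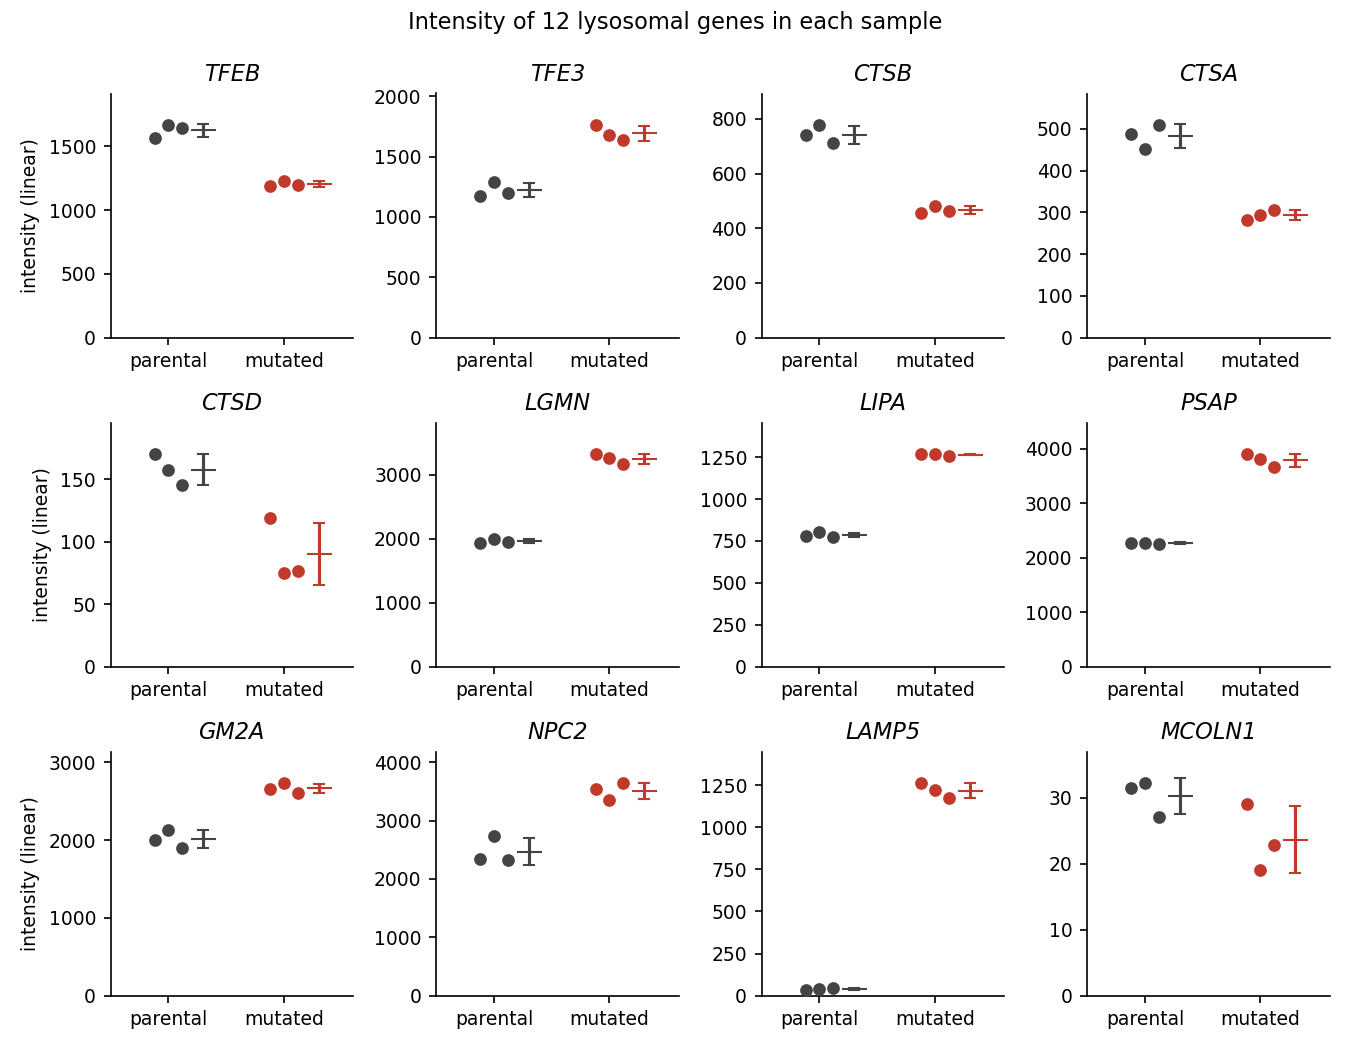
Linear intensity of 12 genes in each of 3 parental (grey) and 3 mutated (red) samples, with the group mean and SD beside the points and every axis starting at 0. The groups are apart in each panel other than that of MCOLN1, where mutated replicate 1 lies within the parental range.

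Of 5 glycosidases tested, 2 rose (40%, against 30.1% of all genes), 0 fell and 3 did not pass, with a median change of 0.14. GLA, alpha-galactosidase A, rose from 493 ± 4.39 to 546 ± 14.6 (SD, n = 3; log2 change 0.14, limma, adjusted p = 0.043). GAA, which breaks down glycogen, rose from a dim 32.5 ± 5.13 to 42.2 ± 2.22 (SD, n = 3; log2 change 0.27, limma, adjusted p = 0.040). Both calls were marginal: that of GLA ended with the omission of any single sample (limma, adjusted p from 0.061 to 0.12) and that of GAA without parental replicate 2 or 3 or mutated replicate 1 or 2 (0.091 to 0.10), and neither passed with quantile normalization (0.12 and 0.19) or median centring (0.32 and 0.12). HEXA, the alpha subunit of beta-hexosaminidase (0.14, adjusted p = 0.19), GUSB, beta-glucuronidase (0.15, adjusted p = 0.11), and NEU1, a sialidase (−0.13, adjusted p = 0.39), did not pass. GUSB passed without mutated replicate 3 (limma, 0.21, adjusted p = 0.024), and NEU1 without parental replicate 3 (limma, −0.26, adjusted p = 0.029). GUSB also passed with the trend and robust options of eBayes. The sulfatases IDS (0.091) and SGSH (−0.13), which act on heparan sulfate, and ARSA (0.21), which acts on sulfatide, did not pass either. IDS passed only with the trend and robust options of eBayes (limma, adjusted p = 0.038). It had 7 tested probe sets, with changes from −0.49 to 0.34, of which 2 fell and 0 rose.

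Lipid hydrolysis was represented by enzymes and by the carriers that present lipids to them. LIPA, the acid lipase that frees cholesterol from its esters, had intensities of 782, 802 and 775 in parental and 1267, 1267 and 1260 in mutated cells. All mutated samples were higher, and LIPA rose by 0.67 (SE 0.044; limma, adjusted p = 5.7e-05). NPC2, which binds the freed cholesterol, had intensities of 2335, 2731 and 2327 in parental and 3533, 3357 and 3637 in mutated cells, again with no overlap. It rose by 0.51 (SE 0.078; limma, adjusted p = 0.0021). NPC1, the membrane protein that takes cholesterol from NPC2, is named after its value was seen; it rose by 0.29 (limma, adjusted p = 0.0060). ASAH1, acid ceramidase, rose by 0.15 (limma, adjusted p = 0.045), a call that each omission of a single sample ended (0.0504 to 0.13), as did median centring (0.071, adjusted p = 0.34) and testing without the filter on dim probe sets (adjusted p = 0.094). Another of its probe sets rose by 0.35 (limma, adjusted p = 0.0012). PPT1, a thioesterase that removes fatty acids from proteins, gave 0.13 (limma, adjusted p = 0.061). It passed under 4 alternatives and not under the other 12. The 4 were the dimmest 60% left out, the trend and robust options of eBayes, a pseudocount of 64 and the mean of probe sets. SMPD1, acid sphingomyelinase, was not tested, its 4 probe sets having group means of at most 13.0.

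The cofactors of sphingolipid breakdown rose. PSAP, the precursor of the saposins, had intensities of 2279, 2272 and 2247 in parental and 3899, 3816 and 3665 in mutated cells. It rose by 0.74 (SE 0.048; limma, adjusted p = 5.2e-05), and its second probe set by 0.34. GM2A, which presents GM2 ganglioside to beta-hexosaminidase, had intensities of 2002, 2136 and 1899 in parental and 2653, 2731 and 2611 in mutated cells. It rose by 0.40 (SE 0.059; limma, adjusted p = 0.0018), and of 7 tested probe sets 6 rose, by 0.29 to 1.04. The groups did not overlap in either gene. With NPC2, 3 of 3 carriers and cofactors rose, where 30.1% of all tested genes did. All 3 calls held under each alternative that could be fitted, quantile normalization and median centring included. PSAP could not be tested with probe sets of suffixes _s_at and _x_at barred. HEXA, whose product works with GM2A, is among the genes that did not pass.

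LAMP5 showed the largest change of the 30 genes tested and ranked 9 by log2 change among 13644. This LAMP family member is known from plasmacytoid dendritic cells and neurons. Its intensities were 36.4, 37.5 and 45.1 in parental and 1261, 1219 and 1173 in mutated cells, so that parental cells lay just above the array medians and mutated cells far above. The ratio of mean intensities was 30.7 and the log2 change 4.47 (SE 0.073; limma, adjusted p = 3.5e-07), with 3.63 and 4.91 at pseudocounts of 64 and 1. Of 4 marker genes of plasmacytoid dendritic cells, 3 were also called higher, where 30.1% of all tested genes were. CLEC4C rose from 11.3 ± 1.86 to 193 ± 12.2, NRP1 from 10.7 ± 4.71 to 124 ± 9.12, and IL3RA from 132 ± 4.93 to 399 ± 15.5 (SD, n = 3). The fourth, LILRA4, fell from 168 ± 5.33 to 68.4 ± 10.7 (SD, n = 3). CLEC4C and NRP1 were below the array medians in parental cells and reached the test through their level in mutated cells, so their calls add no support. The summed intensity of the 4 was 314 to 330 in parental and 776 to 788 in mutated samples, and its part in the LAMP5 result was not tested. In bulk RNA, more or fewer cells of a type and more or less RNA per cell cannot be told apart.

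The abundant membrane proteins LAMP1 and LAMP2 moved apart. LAMP1 fell from 2796 ± 104 to 2181 ± 43.9 (SD, n = 3; log2 change −0.36, limma, adjusted p = 0.0016), and its second brightest probe set fell by 0.38. LAMP2, which also serves chaperone-mediated autophagy, rose from 2209 ± 95.5 to 2582 ± 75.3 (SD, n = 3; log2 change 0.22, limma, adjusted p = 0.015), and 4 of 4 LAMP2 probe sets rose, by 0.19 to 0.41. The LAMP2 call was lost with median centring (0.15, adjusted p = 0.093) and without parental replicate 3 (0.20, adjusted p = 0.0501). SCARB2, which carries glucocerebrosidase to the lysosome, gave 0.17 (limma, adjusted p = 0.051) and passed without parental replicate 1 (limma, adjusted p = 0.039). It also passed with the dimmest 60% left out, with the trend and robust options of eBayes and at a pseudocount of 64. Its change was 0.074 with quantile normalization (limma, adjusted p = 0.32) and 0.093 with median centring (limma, adjusted p = 0.27). MCOLN1, a calcium channel of the lysosomal membrane, was dim, at 31.6, 32.2 and 27.1 in parental and 29.2, 19.0 and 22.9 in mutated cells. Its groups overlapped and it did not pass (−0.23, limma, adjusted p = 0.11). It passed with quantile normalization (−0.30, adjusted p = 0.046), with median centring (−0.31, adjusted p = 0.042) and without mutated replicate 1 (−0.33, adjusted p = 0.026).

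Probe sets of one gene did not always agree. Of 75 tested probe sets, 31 rose (30.9% of all tested probe sets did) and 13 fell (16.6%). Of the 17 genes with more than 1 tested probe set, 8 had changes of both signs, but 0 had probe sets called in both directions. The 8 were CTSS, TPP1, HEXA, GUSB, IDS, SGSH, LAMP1 and TFE3. In SGSH the brightest probe set gave −0.13 while the dim one rose by 0.35, and in HEXA the brightest gave 0.14 while a dim one fell by 0.41.

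**Figure D3:**
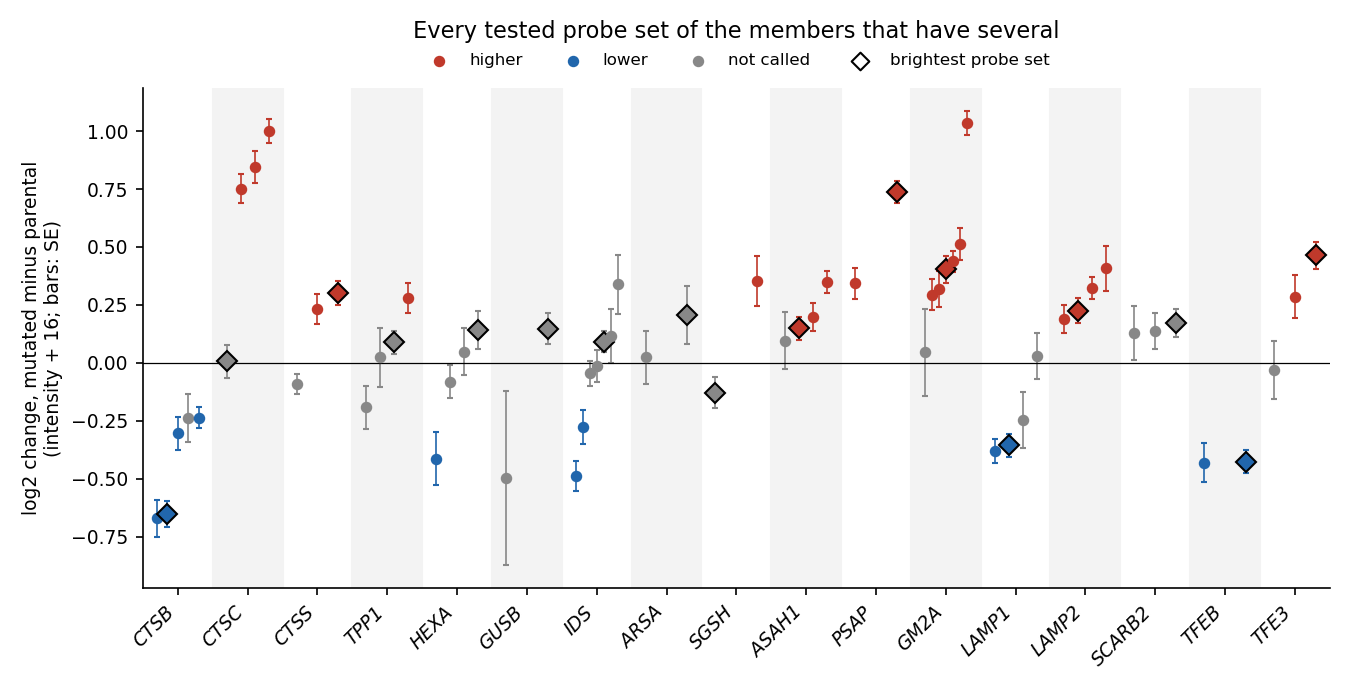
Log2 change (mutated minus parental, of intensity + 16, bars are SE) of every tested probe set of the 17 genes with more than 1, coloured by call, with a black-edged diamond for the brightest probe set. CTSC stands out in that its brightest probe set lies at 0.0074 and its other 3 between 0.75 and 1.0007.

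Other genes of the pathway were counted in lists by role. Of 112 such genes tested, 30 rose (26.8%, against 30.1% of all genes) and 27 fell (24.1%, against 18.9%), and the median change was 0.022, against 0.038. With quantile normalization 27 rose and 37 fell, where 24.9% and 25.6% of all genes did, and with median centring 22 and 39, where 22.4% and 26.1% did. Among 16 V-ATPase subunits 7 fell, 2 rose and 7 missed the threshold (43.8% fell, against 18.9% of all genes, with a median of −0.18). ATP6V1C1 and ATP6V0A2, named after their values were seen, counted as fallen. Each had a dimmer probe set called higher (0.25 and 0.21, limma, adjusted p = 0.010 and 0.023). A further ATP6V1C1 probe set fell (−0.18). ATP6V0D1 (−0.50) and ATP6V0A1 (−0.32), of the membrane sector, fell, and the 2 that rose were ATP6V1A (0.32), a catalytic subunit, and ATP6AP2 (0.20), an accessory protein, whose call was lost with median centring (adjusted p = 0.084). Other hydrolases rose in 7 (35%) and fell in 4 (20%) of 20, shares to be read against the same 30.1% and 18.9%. The acetyltransferase HGSNAT rose from 49.8 ± 2.94 to 128 ± 21.2, the sialic acid esterase SIAE from 82.9 ± 5.96 to 178 ± 5.79 and the beta-mannosidase MANBA from 953 ± 43.1 to 1420 ± 40.8 (SD, n = 3). Membrane proteins and transporters rose in 6 (30%) and fell in 4 (20%) of 20, with SIDT2 (0.68) and LAPTM4A (0.47) rising and MFSD1 (−0.63) falling.

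Genes of enzyme sorting rose in 4 (28.6%, against 30.1% of all genes) and fell in 3 (21.4%, against 18.9%) of 14. Those that fell were the mannose-6-phosphate receptors M6PR, from 956 ± 44.6 to 693 ± 43.4, and IGF2R, from 2051 ± 46.1 to 1513 ± 89.3 (SD, n = 3), and the adaptor GGA3 (−0.39). A second IGF2R probe set fell by 0.53, and a dim one gave 0.064 and did not pass. AP1S1 (0.52) and GGA2 (0.39), which sort cargo at the Golgi, rose, the latter not as the mean of its probe sets (0.089, adjusted p = 0.25). Cystatins, which inhibit cysteine cathepsins, were mostly dim. Of 4 tested, CST3 (0.93) and CSTA (0.54) rose (50%, against 30.1% of all genes) and 1 fell (25%, against 18.9%). CST6 fell from 24.2 ± 1.89 to 18.6 ± 1.73 (SD, n = 3; limma, adjusted p = 0.026), a call lost without parental replicate 2 or 3 or mutated replicate 1 or 2 (0.052 to 0.083).

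The next list held the relatives of TFEB and the mTORC1 machinery at the lysosome, which holds TFEB in the cytoplasm when nutrients are plentiful. Of 17 tested, 5 rose (29.4%, against 30.1% of all genes) and 2 fell (11.8%, against 18.9%). RRAGD, a Rag GTPase, had intensities of 1281, 1285 and 1392 in parental and 4788, 4553 and 4319 in mutated cells, with no overlap. It rose by 1.77 (SE 0.062; limma, adjusted p = 3.7e-06), and by 2.17 on its other probe set. Its regulators FLCN, folliculin, and FNIP2, a folliculin partner, rose from 153 ± 17.2 to 252 ± 13.0 and from 570 ± 12.4 to 858 ± 35.8 (SD, n = 3), FLCN not as the mean of its probe sets (0.16, adjusted p = 0.43). LAMTOR3 (−0.28) and MLST8 (−0.28) fell. The other LAMTOR3 probe set rose by 0.40, and the MLST8 call was lost without parental replicate 2 (adjusted p = 0.054). MITF was not tested, and TFEC did not pass (0.092). Autophagy genes rose in 4 (19%, against 30.1% of all genes) and fell in 6 (28.6%, against 18.9%) of 21. ULK2, a kinase that starts autophagy, fell from 225 ± 19.0 to 57.2 ± 15.7 and the cargo receptor SQSTM1 from 1966 ± 55.0 to 1427 ± 20.8, while ATG12 rose from 1269 ± 13.6 to 1747 ± 27.8 (SD, n = 3). The SQSTM1 call was lost as the mean of its probe sets (adjusted p = 0.053) and when suffixes _s_at and _x_at were barred (adjusted p = 0.082).

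**Figure D4:**
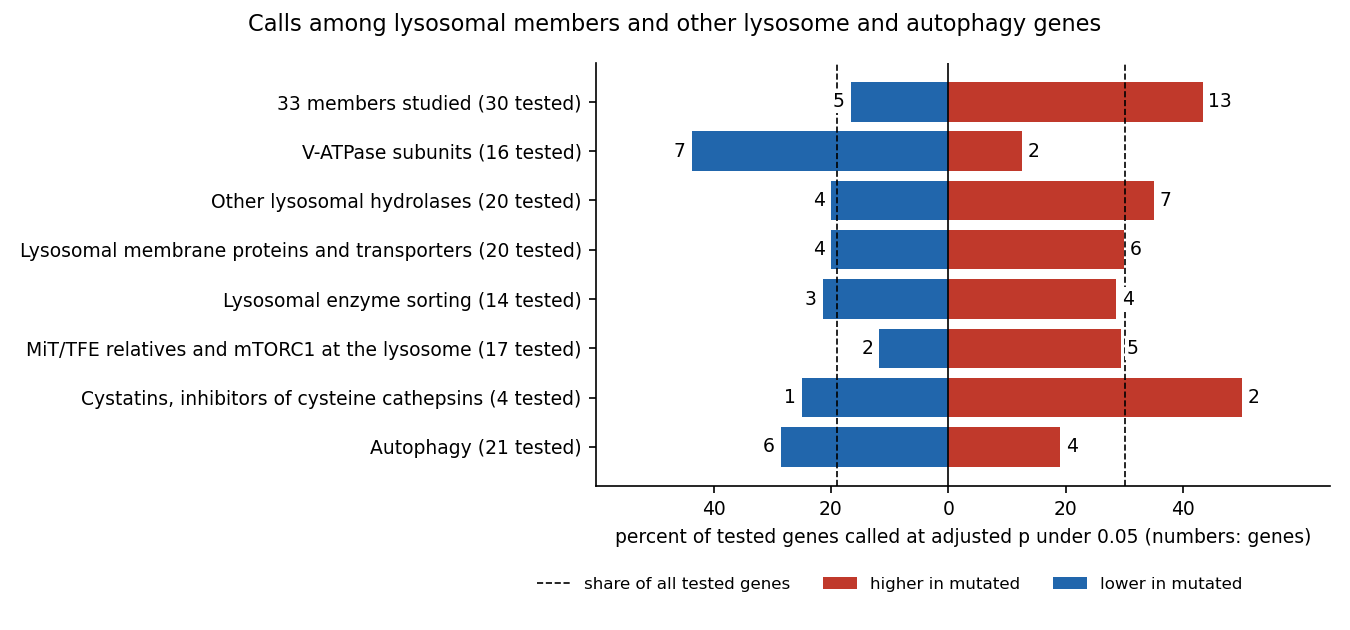
Percent of tested genes called higher (red, to the right) and lower (blue, to the left) in mutated cells, with a call needing an adjusted p below 0.05, for the 33 genes studied and 7 other lists of lysosome and autophagy genes, with the number of genes at each bar end and dashed lines at the shares of all tested genes (30.1% and 18.9%). The V-ATPase bar reaches furthest to the left, with 7 of 16 genes.

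Markers of other cell types were read in the same fit. Of 4 plasma cell markers, SDC1, PRDM1 and TNFRSF17 fell, where 18.9% of all tested genes did, and XBP1 did not pass. Their summed intensity was 7134 to 7307 in parental and 3862 to 4053 in mutated samples. The summed intensity of 8 macrophage markers, a cell type rich in lysosomal enzymes, was 114 to 150 in parental and 129 to 153 in mutated samples, ranges that overlap. Of these 8, CD14, CSF1R, LYZ, CD163, FCGR1A and VSIG4 were at or below the highest array median in both groups, MARCO fell from a mean of 69.7 to 34.2, and 2 MSR1 probe sets rose, from 2.81 to 55.9 and from 18.9 to 25.1, while the one that represented MSR1 in the fit did not pass. The MSR1 probe set that rose from 2.81 was below the array medians in parental cells. It reached the test through its level in mutated cells, so its call adds no support. The same probe set stood for MSR1 in the summed intensity. The part of these cell types in the results was not tested.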

How the data were processed

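Total RNA of 6 samples, 3 per group by their titles, was labelled with biotin by in vitro transcription, per the labels' protocols. The authors deposited a linear intensity for each probe set. Their summary, background and between-array steps are not stated in the sources used here, and no detection calls were used. The 6 arrays limit the precision.

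Intensities of 54613 probe sets were transformed as log2(intensity + 16), the dimmest 40% were left out, and 32768 were fitted with limma 3.58.1 in R 4.3.3 (lmFit and eBayes, two-sided, group as the only term). The pseudocount understates changes of dim genes. The platform annotation gives 1 symbol for 41091 probe sets, and several for 1801, which were not used. Entrez IDs of 32 members matched RefSeq genes. The procedure was tested on simulated data. Python 3.11.15 with matplotlib 3.10.9 drew the figures. All 33 members were named, with values of each sample for called members with a log2 change of at least 0.4 in size and for TFEB, TFE3 and MCOLN1. Of each other list up to 3 genes of smallest adjusted p were named, with every called gene of a direction holding 3 or fewer. Members and lists were chosen with earlier results of these data known. Planned protein comparisons were not run.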

Additional observations from a re-analysis of the deposited data

How the results depend on the processing

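The alternatives were quantile normalization, median centring, no filter, a filter on the dimmest 60%, eBayes with trend and robust options, pseudocounts of 1 and 64, the replicate number as a block, averaging the probe sets of each gene, barring the suffixes _s_at and _x_at, and each sample left out in turn. Of 473 values (a gene under an alternative) 413 kept their direction and side of the threshold, 30 lost the call, 17 gained one and 13 changed sign, and 14 of the 30 genes kept both under every alternative that could be fitted. With each sample left out in turn, 9 to 12 members rose and 5 to 6 fell, and of the other listed genes 25 to 34 rose and 20 to 25 fell. With those suffixes barred only 79 of those genes could be tested, and 15 fell. CTSC changed sign with quantile normalization (−0.030), median centring (−0.072) and without parental replicate 3 or mutated replicate 1 or 2, ranging from −0.037 to 0.064 over the left-out samples, and it did not pass in any of these. As the mean of probe sets HEXA gave −0.075, GUSB −0.17, IDS −0.039, SGSH 0.11 and LAMTOR3 0.060. Without the suffixes CTSS gave −0.091, TPP1 −0.19, HEXA −0.080, IDS −0.015 and IGF2R 0.064. In both settings other probe sets stand for the gene. The replicate numbers were not taken to pair the samples, since deviations of same-numbered samples correlated at 0.11, 0.027 and 0.11. With the replicate block 11 members rose and 5 fell, and 28 and 27 of the other genes; 6 of 6 samples correlated best with their own number. The largest SEs among the 30 genes were those of CTSD (0.16), ARSA (0.12) and NEU1 (0.11). The dim MCOLN1 and GAA followed, with 0.10 and 0.085.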
